A study of Homo sapiens with 12 samples.

Results

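The genes of the cytosolic ribosomal proteins were followed in 2 urothelial carcinoma cell lines made to overexpress the long noncoding RNA HOTAIR. A naming rule took every symbol of RPL or RPS, a number and at most an ending such as A, X, L or L1. RPLP0, RPLP1, RPLP2 and RPSA were also in the rule, and this group of genes was chosen with earlier results of these data known. Pseudogenes and the RPS6K kinases were left out. The rule took 72 of the 18132 genes with a value, 48 of the large and 24 of the small subunit, which were read by 188 probe sets. A further 13 genes that the rule names were not analysed here as genes, among them RPSA, RPLP0 and RPL15.

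RNA of 4 stably transfected clones was measured on 12 Affymetrix PrimeView arrays, 3 separate RNA preparations per clone. The labelling starts at the 3′ end of the transcripts. VM-CUB1_HOTAIR 20 and 5637_HOTAIR 4 are clones of the established urothelial carcinoma lines VM-CUB1 and 5637 that carry the LZRS-HOTAIR plasmid. VM-CUB1_LV and 5637_LV carry the empty vector. All clones were selected with puromycin and grown in DMEM with fetal calf serum, and the study asked whether HOTAIR acts alike in different urothelial carcinoma cells. Only 1 clone stands for each group. A p-value here therefore reflects how RNA preparations of a clone vary, not how clones vary, and HOTAIR itself was not analysed here.

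Each value is a log2 signal relative to the median of the 6 arrays of the same line for that probe set. Such values hold differences but no expression level, so neither genes nor lines can be ranked by level, and the identity of the cells could not be checked by marker level. A gene is the mean of its probe sets. The arrays of a group correlated with each other over all genes at 0.94 to 0.948 in VM-CUB1_HOTAIR 20, 0.918 to 0.946 in VM-CUB1_LV, 0.832 to 0.848 in 5637_HOTAIR 4 and 0.775 to 0.829 in 5637_LV, and their number limits the precision.

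The cytosolic ribosome is built from a small subunit, which holds the mRNA and reads its codons, and a large subunit, which joins amino acids and lets the new chain out through a tunnel. Ribosomal proteins are needed in matching amounts, and their mRNAs are among the most abundant in dividing cells. Most of these mRNAs begin with a C followed by a run of pyrimidines, the terminal oligopyrimidine or TOP motif, through which mTOR signalling and the RNA-binding protein LARP1 adjust their translation together. Some genes have a second copy with the ending L or L1 that encodes a closely related protein and is often used in a particular tissue.

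The starts of members on which the results turn are shown because most share this motif and some do not. Each window runs from 10 bases before to 20 bases from an annotated RefSeq transcript start (GRCh38.p14), with the pyrimidine run at the start in capitals where there is a C followed by at least 4 pyrimidines. RPL27A (chr11:8682782-8682811, plus strand), RPL36 (chr19:5690285-5690314, plus), RPL22 (chr1:6199576-6199605, minus), RPL37A (chr2:216498834-216498863, plus), RPL13A (chr19:49487598-49487627, plus) and RPL35A (chr3:197950180-197950209, plus) have the motif. RPS28 (chr19:8321486-8321515, plus), RPS15 (chr19:1438386-1438415, plus) and RPL36AL (chr14:49620607-49620636, minus) do not at these starts.
RPL27A: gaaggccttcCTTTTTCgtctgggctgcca
RPL36: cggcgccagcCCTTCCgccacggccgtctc
RPL22: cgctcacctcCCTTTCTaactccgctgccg
RPL37A: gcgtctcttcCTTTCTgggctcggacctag
RPL13A: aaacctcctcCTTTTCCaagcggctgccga
RPL35A: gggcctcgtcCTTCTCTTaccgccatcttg
RPS28: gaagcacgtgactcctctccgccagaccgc
RPS15: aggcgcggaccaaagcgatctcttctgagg
RPL36AL: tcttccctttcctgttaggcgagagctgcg

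The HOTAIR clone of VM-CUB1 was higher than its vector clone for 24 of the 72 genes and lower for 6, whereas that of 5637 was higher for only 2 and lower for 21 (limma, Benjamini-Hochberg adjusted over all genes, threshold 0.01). The background over all 18132 genes was 21.1% higher and 20.5% lower for VM-CUB1, and 14.7% higher and 15.2% lower for 5637. The ribosomal protein genes were thus called higher more often than the background in VM-CUB1, at 33.3%, and lower less often, at 8.33%. In 5637 they were called lower at 29.2% and higher at 2.78%. Under the t-test that the methods name, with the same adjustment and threshold, members called lower in VM-CUB1 were 12, or 16.7% against 15.9% of all genes, so the shortfall of lower calls there was not seen with that test. Its other shares were 31.9% against 16.5% higher in VM-CUB1, and 37.5% against 9.92% lower and 5.56% against 10.2% higher in 5637. The changes were small. The median log2 fold change was 0.11 in VM-CUB1 and -0.11 in 5637, beside -0.03 and -0.04 over all genes. The median size of the log2 fold change regardless of sign was 0.18 in VM-CUB1 and 0.15 in 5637, against 0.20 and 0.15 over all genes. At least a 1.5-fold change was found for 4 rising and 2 falling members in VM-CUB1 (background 11.9% and 11.1%), and for 0 rising and 5 falling members in 5637 (background 6.4% and 4.03%). RNA of bulk cells was measured, so fewer cells with a transcript and less of it per cell cannot be told apart.

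The shift was visible in each array. The median over the 72 genes was 0.05, 0.05 and 0.03 in the VM-CUB1_HOTAIR 20 arrays and -0.05, -0.04 and -0.03 in the VM-CUB1_LV arrays. It was -0.06, -0.05 and -0.05 in the 5637_HOTAIR 4 arrays and 0.07, 0.05 and 0.05 in the 5637_LV arrays. The medians over all genes lay between -0.01 and 0.03 in every array. All HOTAIR arrays thus lay above all vector arrays in VM-CUB1 and below them in 5637. Gene by gene, the HOTAIR arrays lay wholly above the vector arrays for 38 members in VM-CUB1 and wholly below for 17, where 27.6% and 30.4% of all genes did so. In 5637, 11 members lay wholly above and 43 wholly below, where 22.8% and 28.6% of all genes did so.

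**Figure D1:**
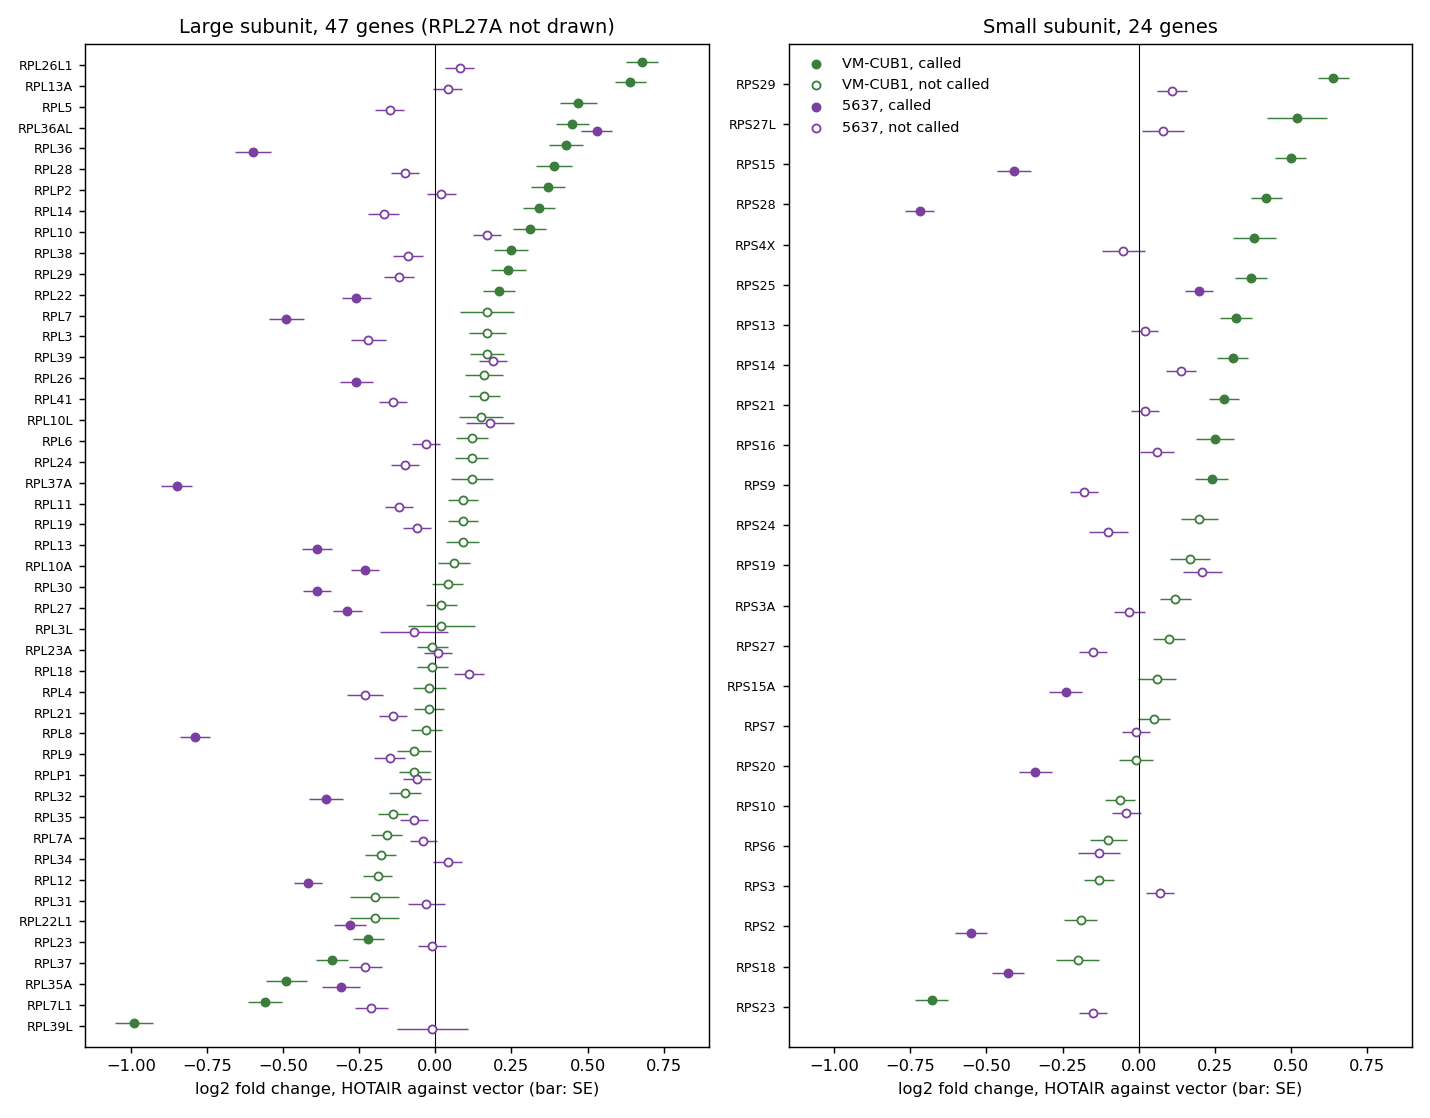
The log2 fold change of HOTAIR against vector for the ribosomal protein genes other than RPL27A, which is not drawn. Large and small subunit are in separate panels, each with both lines, in order of the VM-CUB1 value. Bars are standard errors, and genes called at an adjusted p below 0.01 have filled points. Most called genes lie above 0 in VM-CUB1 and below 0 in 5637.

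The 48 large subunit genes had 13 rises and 5 falls in VM-CUB1 (27.1% and 10.4%), with a median log2 fold change of 0.09. Of 24 small subunit genes, 11 rose and 1 fell (45.8% and 4.17%), with a median of 0.19. The risers of the small subunit were RPS4X, RPS9, RPS13, RPS14, RPS15, RPS16, RPS21, RPS25, RPS27L, RPS28 and RPS29. In 5637, 15 large subunit genes fell and only RPL36AL rose (31.2% and 2.08%, median -0.13). Among the small subunit genes, 6 fell and only RPS25 rose (25% and 4.17%), and their median of -0.04 was the same as that over all genes. The large minus small subunit median was -0.10 in VM-CUB1 and -0.09 in 5637, so the large subunit lay lower in both lines, and this was not tested.

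The difference between the lines was tested gene by gene as the HOTAIR effect in VM-CUB1 minus that in 5637. It was higher for 36 members and lower for 4, or 50% and 5.56%, where 21.9% of all genes were called higher and 20.1% lower. With a difference of at least 1.5-fold as well, 10 members were higher (13.9%) and 1 lower (1.39%), beside 13.7% and 14.1% of all genes, so the share of large differences above 0 was at the background. Of the 36 members, 18 had a call of higher in VM-CUB1 and 18 a call of lower in 5637, 5 of them both, and 5 were called in neither line. These 5 were RPL3, RPL11, RPL24, RPL41 and RPS27. RPL34 was the only member with a lower difference and no call in either line. In sign alone, 46 members were above 0 in VM-CUB1 and 53 below 0 in 5637, as were 8114 and 10567 of all 18132 genes. Both held for 31 members, and 4 were the reverse. As each line leaned its own way, the count of 31 does not by itself show that single genes moved oppositely. Over the 72 members, the log2 fold changes of the lines had a Spearman correlation of 0.22 and a Pearson correlation of -0.23, RPL27A included.

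Of all 18132 genes, 3420 (18.9%) were called in both lines, and 741 (4.09%) went up in VM-CUB1 and down in 5637. Of the 72 members, 8 were called in both lines, and 5 went up in VM-CUB1 and down in 5637. These were RPL22, RPL27A, RPL36, RPS15 and RPS28. RPL36AL and RPS25 rose in both lines and RPL35A fell in both, or 2 and 1 of the 72 members (background 5.56% and 5.05% of all genes). No member fell in VM-CUB1 and rose in 5637 (background 4.17%).

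**Figure D2:**
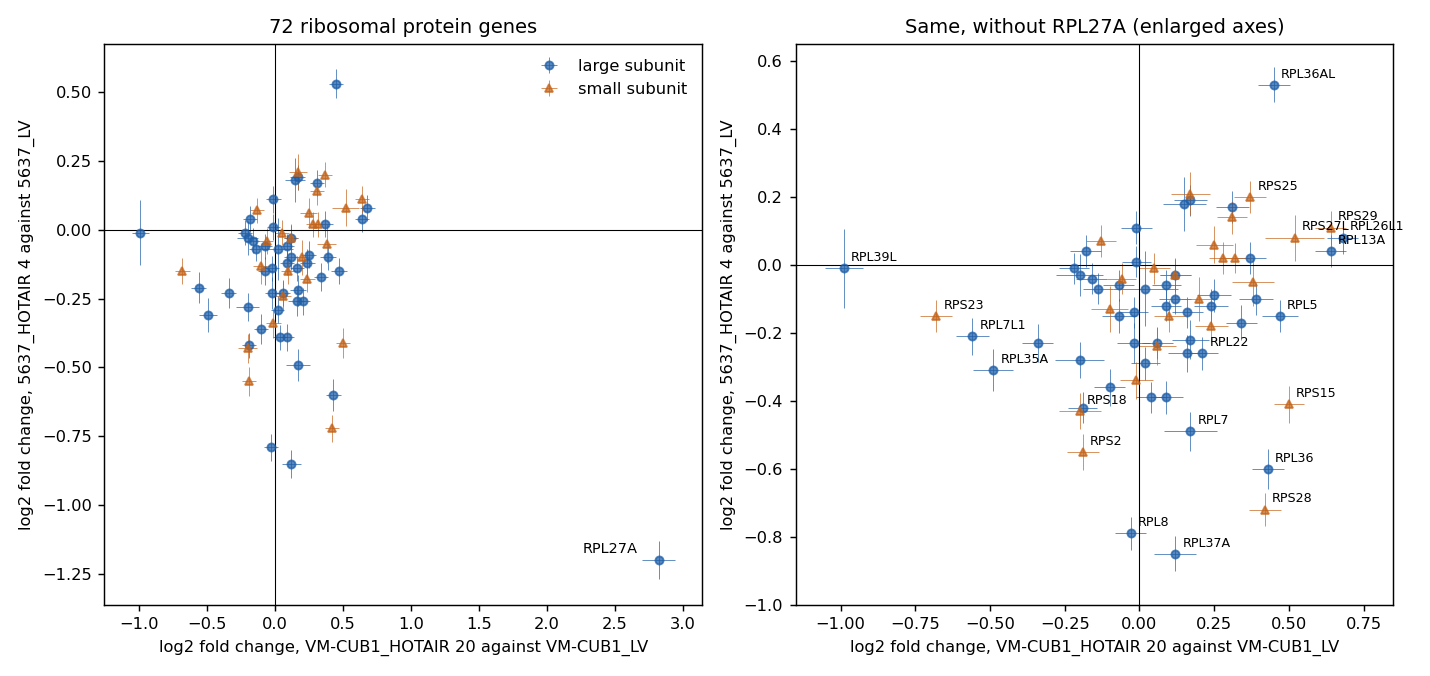
The log2 fold change in VM-CUB1 (horizontal axis) against that in 5637 (vertical axis) for each ribosomal protein gene, large and small subunit marked apart. Of the 72 points, 46 lie above 0 in VM-CUB1 and 53 below 0 in 5637, and the quadrant where both hold has 31. RPL27A stands far out at 2.82 and -1.20.

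RPL27A, a protein of the large subunit, had the largest change of all members in both lines. In VM-CUB1 its values were 1.43, 1.28 and 1.27 in the HOTAIR arrays and -1.77, -1.27 and -1.45 in the vector arrays. The groups did not overlap, and the gene was 7.07-fold higher with HOTAIR (log2 fold change 2.82, SE 0.119, adjusted p = 2.0e-07). In 5637 the HOTAIR arrays were at -0.63, -0.50 and -0.64 and the vector arrays at 0.50, 0.66 and 0.69, a 2.30-fold fall (log2 fold change -1.20, SE 0.069, adjusted p = 5.0e-06). Both values rest on 1 probe set. The other 2 probe sets that name RPL27A also name SNORA3A, a small nucleolar RNA, and gave smaller log2 fold changes of 0.67 and 0.77 in VM-CUB1, both called. In 5637 they gave -0.12 and -0.13, neither of which was called.

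RPS28, which lies at the exit of the mRNA channel of the small subunit, was read by 7 probe sets. In VM-CUB1 the HOTAIR arrays were at 0.22, 0.18 and 0.18 and the vector arrays at -0.24, -0.19 and -0.26, which gave a log2 fold change of 0.42 with an SE of 0.052 (adjusted p = 1.5e-04). In 5637 the HOTAIR arrays were at -0.33, -0.34 and -0.35 and the vector arrays at 0.33, 0.43 and 0.37, which gave a log2 fold change of -0.72 with an SE of 0.049 (adjusted p = 1.3e-05). The groups were apart in both lines, in opposite order. Its probe sets ranged from 0.22 to 0.91 in VM-CUB1, with 3 of 7 called higher, and from -1.47 to -0.29 in 5637, with all 7 called lower. Of all 44988 probe sets with 1 gene symbol, 19.1% were called higher and 18% lower in VM-CUB1, and 12.6% and 12.1% in 5637. The difference between the lines was 1.14 (SE 0.065, adjusted p = 7.5e-09).

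RPL36, a large subunit protein, had all 3 probe sets called in both lines. The VM-CUB1 HOTAIR arrays were at 0.20, 0.26 and 0.18 against -0.27, -0.17 and -0.22 with vector, which gave a log2 fold change of 0.43 with an SE of 0.055 (adjusted p = 1.9e-04). The 5637 HOTAIR arrays were at -0.30, -0.33 and -0.25 against 0.30, 0.40 and 0.23, which gave a log2 fold change of -0.60 with an SE of 0.059 (adjusted p = 8.3e-05). All 3 of its probe sets carry the ending _x_at, which marks probes that may also bind other transcripts.

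RPS15, a small subunit protein near the decoding site, moved likewise with both of its probe sets. The VM-CUB1 arrays were at 0.25, 0.26 and 0.22 with HOTAIR and at -0.23, -0.26 and -0.29 with vector, and the log2 fold change was 0.50 (SE 0.051, adjusted p = 4.6e-05). The 5637 arrays were at -0.19, -0.25 and -0.15 with HOTAIR and at 0.25, 0.26 and 0.15 with vector, and the log2 fold change was -0.41 (SE 0.055, adjusted p = 4.5e-04). The 2 groups were apart in each line. RPL22, an RNA-binding protein of the large subunit, changed less, with log2 fold changes of 0.21 in VM-CUB1 (SE 0.052, adjusted p = 0.00814) and -0.26 in 5637 (SE 0.048, adjusted p = 0.00253). Only 1 of its 3 probe sets was called, at 0.52 and -0.54, and the median of probe sets in VM-CUB1 was 0.09 and not called (adjusted p = 0.195). Without any 1 of the 6 arrays the VM-CUB1 call was lost, with adjusted p from 0.0142 to 0.0373. The 5637 call was lost without 5637_HOTAIR 4 replicate 2 (adjusted p = 0.0121) or replicate 3 (adjusted p = 0.014).

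**Figure D3:**
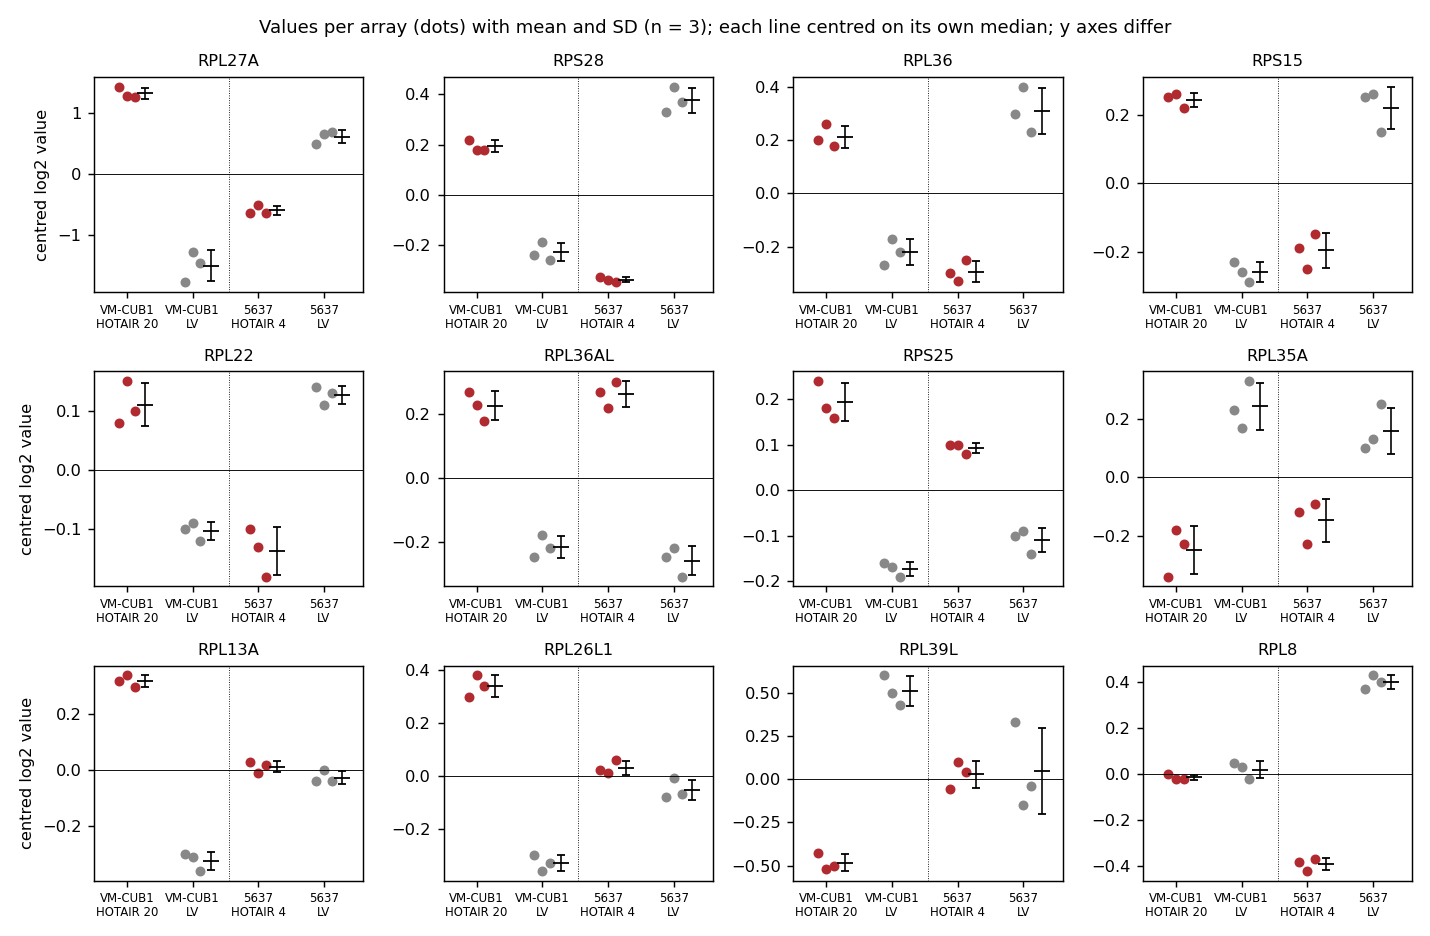
The value of every array, as log2 relative to the median of the line's 6 arrays, for members named in the text, HOTAIR and vector arrays marked apart and the bars at the group means. RPL27A, RPS28, RPL36 and RPS15 have their groups in opposite order in the lines, and RPL36AL has them in the same order.

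RPL36AL, whose product is nearly identical to that of RPL36A, rose in both lines. The VM-CUB1 values were 0.27, 0.23 and 0.18 with HOTAIR and -0.25, -0.18 and -0.22 with vector (log2 fold change 0.45, SE 0.054, adjusted p = 1.3e-04). The 5637 values were 0.27, 0.22 and 0.30 against -0.25, -0.22 and -0.31 (0.53, SE 0.052, adjusted p = 8.5e-05). Its 2 probe sets gave nearly the same values, and the difference between the lines was -0.08 (SE 0.069, adjusted p = 0.395). RPS25, a small subunit protein with a known part in translation from viral internal entry sites, rose by 0.37 in VM-CUB1 (SE 0.053, adjusted p = 3.9e-04) and 0.20 in 5637 (SE 0.046, adjusted p = 0.00848). The 5637 call was lost without any 1 of the 6 arrays (adjusted p from 0.014 to 0.0369).

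RPL35A, a gene mutated in some families with Diamond-Blackfan anaemia, fell in both lines. The VM-CUB1 HOTAIR arrays were at -0.34, -0.18 and -0.23 and the vector arrays at 0.23, 0.17 and 0.33, which gave a log2 fold change of -0.49 with an SE of 0.067 (adjusted p = 3.1e-04). The 5637 arrays were at -0.12, -0.23 and -0.09 against 0.10, 0.13 and 0.25, which gave a log2 fold change of -0.31 with an SE of 0.062 (adjusted p = 0.00459). One of its 3 probe sets fell by 1.11 in VM-CUB1 and by 1.10 in 5637, and the other 2 were at -0.35 and 0.00 in VM-CUB1 and at 0.00 and 0.18 in 5637, where the median of probe sets was -0.06 and not called (adjusted p = 0.479). In 5637 the call was lost without any array but 5637_LV replicate 1 (adjusted p from 0.0102 to 0.0205).

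Among the members that rose in VM-CUB1 but were not called in 5637, RPL26L1, a second copy of RPL26, rose by 0.68 (1.60-fold, SE 0.053, adjusted p = 8.8e-06), with HOTAIR arrays at 0.30, 0.38 and 0.34 and vector arrays at -0.30, -0.36 and -0.33. RPL26L1 was read by 1 probe set. RPL13A, which is also part of an interferon-induced complex that silences mRNAs, rose by 0.64 (1.56-fold, SE 0.051, adjusted p = 1.0e-05), with 2 probe sets at 0.97 and 0.30. Both carry the ending _x_at, and a probe set that also names RPL13AP5 was at 0.23 in VM-CUB1 and not called. RPS29, a zinc-binding protein of the small subunit, also rose by 0.64 (SE 0.051, adjusted p = 1.0e-05), with probe sets at 1.48, 0.28 and 0.16. The differences between the lines were called for all of these, at 0.59 for RPL26L1, 0.60 for RPL13A and 0.54 for RPS29. With the median of probe sets the RPS29 difference was 0.17 and was not called (adjusted p = 0.0592). Smaller rises in VM-CUB1 were those of RPL10 (0.31), RPL14 (0.34), RPL28 (0.39), RPS4X (0.38), RPS13 (0.32) and RPS14 (0.31), and their 5637 values lay between -0.17 and 0.17 with no call.

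The falls in VM-CUB1 were led by RPL39L, a second copy of RPL39 known mainly from the testis and read here by 1 probe set. Its HOTAIR arrays were at -0.43, -0.52 and -0.50 and its vector arrays at 0.60, 0.50 and 0.43, a log2 fold change of -0.99 (1.99-fold lower, SE 0.063, adjusted p = 2.4e-06). In 5637 it was at -0.01 (SE 0.117, adjusted p = 0.939) with overlapping groups, and the difference was -0.98 (SE 0.142, adjusted p = 6.0e-05). RPL7L1, a relative of RPL7, fell by 0.56 (SE 0.055, adjusted p = 3.5e-05). All 7 of its probe sets were called lower in VM-CUB1, between -0.71 and -0.52. The difference between the lines was -0.35 and was called, but it was -0.21 without _x_at probe sets (adjusted p = 0.122) and -0.08 without _x_at and _s_at probe sets (adjusted p = 0.736). RPL23 fell by 0.22 (SE 0.051, adjusted p = 0.00587), a call that was lost without any 1 of the 6 arrays (adjusted p from 0.0123 to 0.0249).

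In 5637, RPL37A, a zinc-binding large subunit protein, fell by 0.85 (1.80-fold, SE 0.051, adjusted p = 6.1e-06). Its HOTAIR arrays were at -0.44, -0.37 and -0.48 and its vector arrays at 0.44, 0.41 and 0.41, and 5 of its 6 probe sets were called lower. RPL8, which lies close to the site where peptide bonds form, fell by 0.79 (1.73-fold, SE 0.048, adjusted p = 6.5e-06), with HOTAIR arrays at -0.38, -0.42 and -0.37, vector arrays at 0.37, 0.43 and 0.40, and all 3 probe sets between -0.83 and -0.77. In VM-CUB1 these genes were at 0.12 and -0.03 and were not called. The differences between the lines were 0.97 for RPL37A and 0.76 for RPL8.

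Further falls in 5637 were those of RPS2 (-0.55, SE 0.052, adjusted p = 6.8e-05), a protein at the mRNA entry, RPL7 (-0.49, SE 0.058, adjusted p = 2.5e-04), RPS18 (-0.43, SE 0.052, adjusted p = 2.9e-04) and RPL12 (-0.42, SE 0.046, adjusted p = 1.7e-04), which sits at the base of the stalk that recruits elongation factors. RPS2 rested on 1 of its 2 probe sets, which were at -0.96 and -0.15. Both probe sets were called lower for RPS18 and RPL12. RPL13 (-0.39), RPL30 (-0.39), RPL32 (-0.36), RPS20 (-0.34) and RPL27 (-0.29) also fell and were between -0.10 and 0.09 in VM-CUB1 with no call. RPL13 rested on 1 probe set, with the ending _x_at. A probe set that also names RPL13P12 was at -0.03 in 5637 and not called. The probe sets of RPL32 were at -0.51, 0.02 and -0.59 in 5637.

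The probe sets of a gene did not always move together. Of 53 members with several probe sets, 6 had probe sets at least 1 log2 unit apart in VM-CUB1 and 3 in 5637, or 11.3% and 5.66%, where 13.2% and 3.9% of the 11734 genes with several probe sets did so. RPS23, a protein of the decoding centre, was called lower in VM-CUB1 at -0.68 (SE 0.054, adjusted p = 1.0e-05). One of its probe sets, with the ending _x_at, fell by 2.20 and the other 2 were at 0.10 and 0.06, and without the first the gene was at 0.08 (adjusted p = 0.235). RPL22L1, a second copy of RPL22, was the only member with probe sets called in opposite directions, 1.44 and -1.83 in VM-CUB1, and its mean of -0.20 was not called. Such opposite calls were found for 1.36% of all genes with several probe sets in VM-CUB1 and 0.426% in 5637, where no member had them.

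RPL31 had 1 probe set at -1.78 and 5 between -0.06 and 0.38 in VM-CUB1, and RPL28 had 1 of 9 at 1.89. RPL37 fell in VM-CUB1 at -0.34 (SE 0.052, adjusted p = 5.5e-04) through 1 probe set at -0.93, whereas its other 2 were at -0.04 and -0.05, and the median of its probe sets was not called (-0.06, adjusted p = 0.393). Of the 188 probe sets, 49.5% carried the ending _x_at, against 15.9% of all probe sets with 1 gene symbol, and 18 members were read by such probe sets only. Among these 18, VM-CUB1 had 5 rises and 1 fall and 5637 had 0 rises and 3 falls. Among the other 54, VM-CUB1 had 19 rises and 5 falls and 5637 had 2 rises and 18 falls. The part of cross-hybridisation in these values was not tested.

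**Figure D4:**
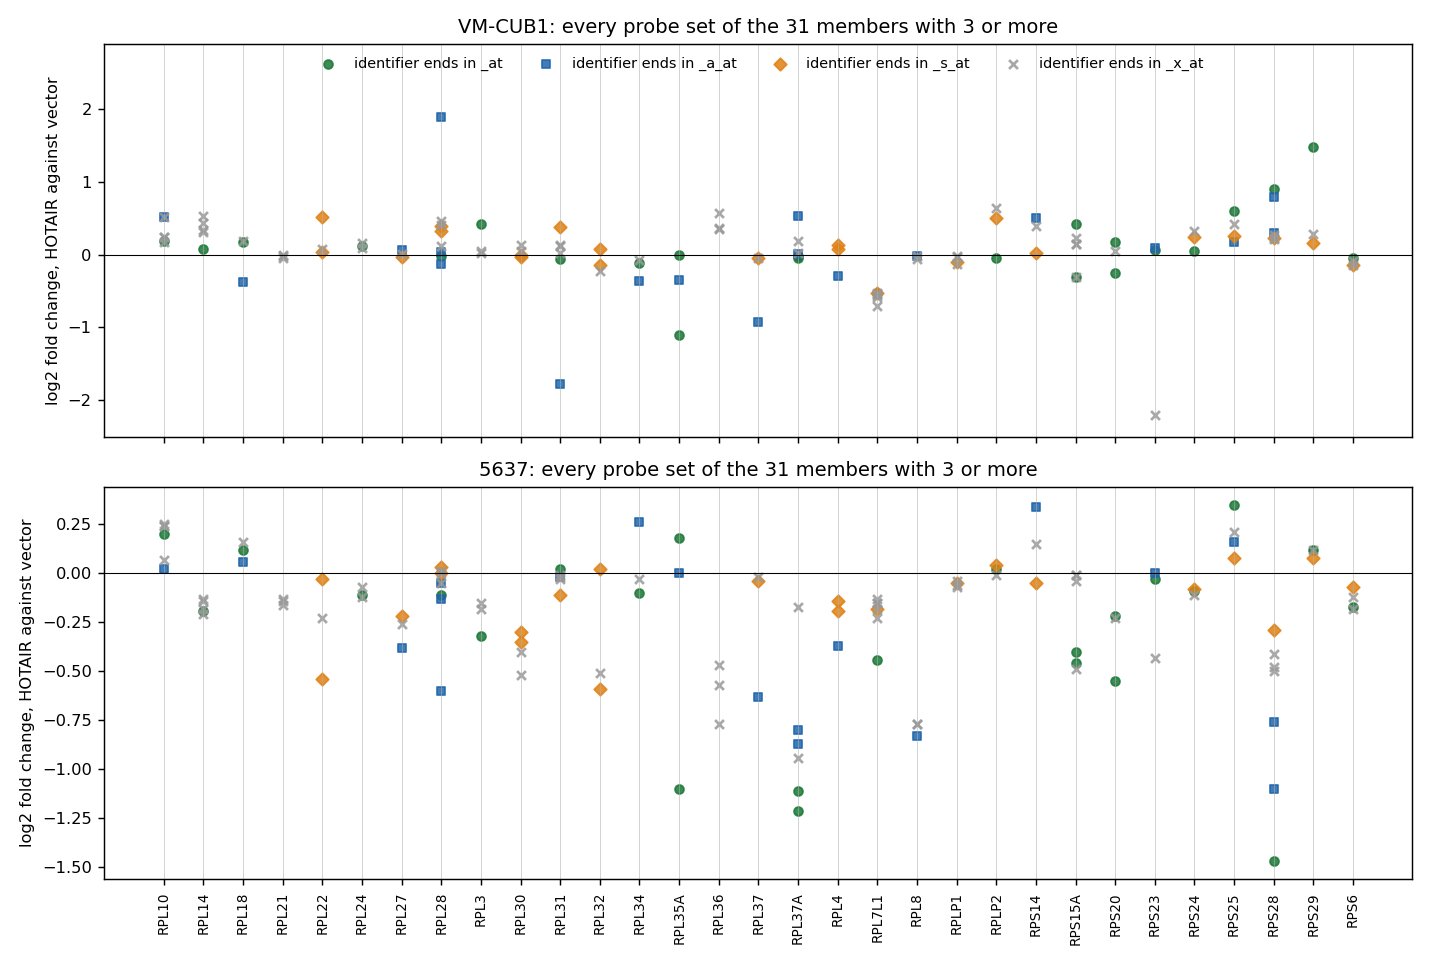
The log2 fold change of each probe set of the members with at least 3 probe sets, VM-CUB1 above and 5637 below on axes of different range, marked by the ending of the probe set's identifier. RPS23, RPL31, RPL28 and RPS29 each have 1 probe set far from the rest in VM-CUB1, while those of RPL7L1 lie together.

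By place in the ribosome, RPL5 and RPL11 carry the 5S ribosomal RNA into the large subunit and can bind the p53 regulator MDM2. RPL5 rose in VM-CUB1 by 0.47 (SE 0.060, adjusted p = 1.9e-04), with HOTAIR arrays at 0.30, 0.19 and 0.21 and vector arrays at -0.30, -0.23 and -0.18. RPL11 was at 0.09 there (adjusted p = 0.188), and in 5637 the values were -0.15 for RPL5 and -0.12 for RPL11 without a call. The differences between the lines were called at 0.62 and 0.21, the second of which was lost without any 1 of the 12 arrays (adjusted p from 0.0121 to 0.0201). Of the stalk that recruits translation factors, RPLP2 rose by 0.37 in VM-CUB1 (SE 0.055, adjusted p = 5.1e-04) and was at 0.02 in 5637, and RPLP1 was at -0.07 and -0.06 with no call. RPLP2 had probe sets at 0.50 (ending _s_at), 0.64 (ending _x_at) and -0.04 (ending _at), and the last alone was not called (adjusted p = 0.712).

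Of 8 measured proteins around the exit tunnel, RPL22 rose in VM-CUB1, and RPL22 and RPL26 fell in 5637, the latter by 0.26 (SE 0.054, adjusted p = 0.00555). The call of RPL26 was lost without any 1 of the 6 arrays (adjusted p from 0.0108 to 0.0259). Of 6 measured proteins along the mRNA path, VM-CUB1 had rises of RPS14, RPS15 and RPS28 and a fall of RPS23, and 5637 had falls of RPS2, RPS15 and RPS28. Of 16 measured genes known to be mutated in Diamond-Blackfan anaemia, an inherited failure of red cell production, RPS28, RPS29 and RPL5 rose and RPL35A fell in VM-CUB1, with a median log2 fold change of 0.07. In 5637, RPS15A, RPS28, RPL26, RPL27 and RPL35A fell and none rose, with a median of -0.11.

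The 8 second copies with the ending L or L1 moved in both directions. In VM-CUB1, RPL26L1, RPL36AL and RPS27L rose, RPL39L and RPL7L1 fell, and RPL3L, RPL10L and RPL22L1 were at 0.02, 0.15 and -0.20 with no call. Of the 7 measured partner genes, RPL10 and RPL22 rose in VM-CUB1 and none fell, and all 7 were between 0.10 and 0.31. In 5637, RPL36AL rose and RPL22L1 fell by 0.28 (SE 0.052, adjusted p = 0.00287) among the second copies, and RPL7, RPL22 and RPL26 fell among the partners. The RPL22L1 call was lost without 5637_HOTAIR 4 replicate 1 (adjusted p = 0.0159) or replicate 3 (adjusted p = 0.0127) and without 5637_LV replicate 3 (adjusted p = 0.0122). The median log2 fold changes were 0.08 and 0.03 for the second copies and 0.17 and -0.22 for the partners, in VM-CUB1 and 5637.

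RPS27L, which is a known p53 target, rose in VM-CUB1 by 0.52 (SE 0.099, adjusted p = 0.00215). Its HOTAIR arrays were at 0.34, 0.09 and 0.30 and its vector arrays at -0.09, -0.41 and -0.32. The call was lost without VM-CUB1_HOTAIR 20 replicate 1 (adjusted p = 0.0108) or replicate 3 (adjusted p = 0.0102), and under the methods' t-test (adjusted p = 0.0318). The probe sets of RPS27L were at 0.81, called higher, and at 0.23, not called. In 5637 the gene was at 0.08 with no call, and the same probe sets were at 0.27, called higher, and at -0.11, not called. RPS27 itself was at 0.10 in VM-CUB1 and -0.15 in 5637, and the difference of 0.25 was called (SE 0.062, adjusted p = 0.00437). That call was lost without VM-CUB1_HOTAIR 20 replicate 2 or 3 or 5637_HOTAIR 4 replicate 1 or 2 (adjusted p from 0.0111 to 0.0141). The striated muscle form RPL3L and the testis form RPL10L had overlapping groups in VM-CUB1.

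The TOP motif was looked for at the annotated starts of the 60 members found in the promoter table. A C followed by at least 4 pyrimidines stood at a start of 42 of them (70%), where 5.14% of the 27305 genes of the table have one. It was found for 27 of 39 large and 15 of 21 small subunit genes. Among the 6 second copies in the table, RPL22L1 alone had one. The partner genes RPL22 and RPS27 have the motif at the starts shown, and RPS27L and RPL26L1 do not, as their windows show against that of RPL26 (chr17:8383174-8383203, minus). The windows are at chr1:153990752-153990781 (plus) for RPS27, chr15:63157458-63157487 (minus) for RPS27L, chr5:172958719-172958748 (plus) for RPL26L1 and chr3:170870176-170870205 (minus) for RPL22L1.
RPL26: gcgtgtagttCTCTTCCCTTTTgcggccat
RPL26L1: tccaggggtcggcgaacgaaacgcggagct
RPS27: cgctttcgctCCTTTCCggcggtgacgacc
RPS27L: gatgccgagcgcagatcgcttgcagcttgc
RPL22L1: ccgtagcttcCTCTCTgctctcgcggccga

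Members with and without the motif at an annotated start had the same medians. Only the exact annotated starts were scored, so members counted as without the motif may have it at nearby starts. The starts used in these cells were not measured, so the equal medians do not show whether TOP mRNAs moved differently. In VM-CUB1, 16 of 42 with the motif rose and 2 fell, and 7 of 18 without it rose and 1 fell, with a median log2 fold change of 0.14 in both sets. In 5637, 1 rose and 10 fell of those with the motif, and 1 rose and 5 fell of those without it, with a median of -0.10 in both. RPL27A and RPL36, with the motif, and RPS28 and RPS15, without it at the starts shown, all rose in VM-CUB1 and fell in 5637. In the window from 250 bases before to 50 after the start, CCGGAAG, a core of the ETS factor motif, was found on either strand for 23 of the 60 members (38.3%) and 12.2% of all genes of the table. AAGATGGC, a core of the YY1 motif, was found for 7 members (11.7%) and 3.52% of all genes. Neither match shows a bound site.

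Other genes of the ribosome and of translation were described from lists. FAU, which encodes a small subunit protein fused to a ubiquitin-like protein, was left out by the naming rule. It was at -0.16 in VM-CUB1 and 0.15 in 5637 with no call in either line. The difference between the lines was -0.31 and was called lower (SE 0.062, adjusted p = 9.3e-04). Of 20 measured translation factors and other genes with TOP mRNAs, VM-CUB1 had 6 rises and 2 falls (30% and 10%, median 0.06). In 5637 they had 1 rise and 8 falls (5% and 40%, median -0.15). Over all genes, the shares higher and lower were 21.1% and 20.5% in VM-CUB1 and 14.7% and 15.2% in 5637. EEF2, the factor that moves the ribosome along the mRNA, rose by 0.50 in VM-CUB1 (SE 0.050, adjusted p = 3.9e-05) and fell by 0.58 in 5637 (SE 0.059, adjusted p = 1.0e-04). Its HOTAIR and vector arrays did not overlap in either line. EEF1D, of the elongation factor complex, fell in both lines, by 0.26 (adjusted p = 0.00307) and by 0.94 (adjusted p = 8.0e-06). EIF3L, of an initiation factor, rose in VM-CUB1 by 0.89 (SE 0.050, adjusted p = 1.1e-06) and was at 0.02 in 5637.

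Lists of genes that serve the making of ribosomes were counted in the same way, and no test compared them with the ribosomal protein genes. Of 33 measured assembly factors, VM-CUB1 had 4 rises and 5 falls (12.1% and 15.2%, median -0.08). In 5637 they had 1 rise and 24 falls (3.03% and 72.7%, median -0.38). BOP1, RRS1 and NAT10, factors of the nucleolus, fell in 5637 by 1.27, 0.91 and 0.81 (adjusted p = 5.1e-06, 4.3e-06 and 2.8e-05). In VM-CUB1 they were at -0.05, -0.07 and -0.18 and were not called. Of 14 genes of RNA polymerase I and its factors, which make ribosomal RNA, VM-CUB1 had 3 rises and 7 falls (21.4% and 50%). In 5637 they had 0 rises and 7 falls (0% and 50%). POLR1E rose 3.52-fold in VM-CUB1 (log2 fold change 1.82, SE 0.057, adjusted p = 3.5e-08) and fell by 0.30 in 5637 (SE 0.054, adjusted p = 0.00259). The 74 genes of the mitochondrial ribosome had 19 rises and 25 falls in VM-CUB1 (25.7% and 33.8%, median 0.05). They had 8 rises and 25 falls in 5637 (10.8% and 33.8%, median -0.10). Beside these lists, 21.1% of all genes were higher and 20.5% lower in VM-CUB1, and 14.7% and 15.2% in 5637.

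**Figure D5:**
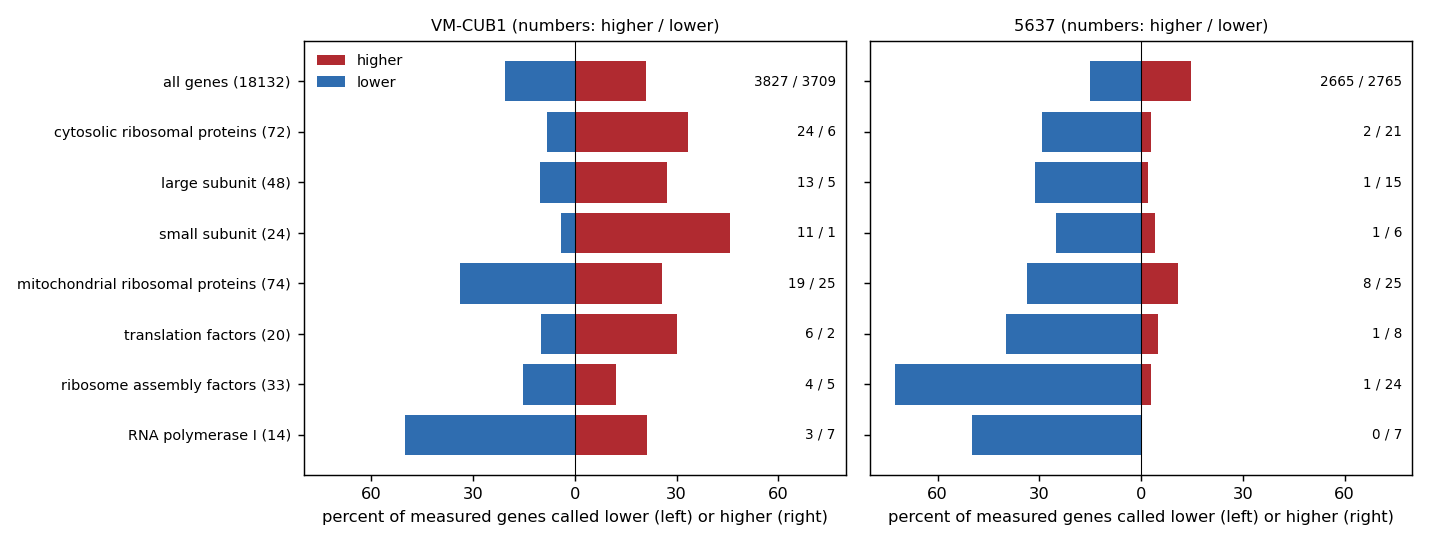
The percent of measured genes called higher (right) or lower (left) in each line, for all genes, the cytosolic ribosomal proteins and their subunits, and other lists of the ribosome, with the counts printed beside the bars. The cytosolic ribosomal protein genes stand at 33.3% higher in VM-CUB1. In 5637 they stand at 29.2% lower and the assembly factors at 72.7% lower.

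Of 6 genes for carriers of single ribosomal proteins, VM-CUB1 had rises of GRWD1 and RPS19BP1 and a fall of BCCIP, and 5637 a rise of BCCIP and falls of AAMP and TSR2. BCCIP, which binds newly made RPL23, had values of -0.54, -0.49 and -0.53 with HOTAIR and 0.61, 0.46 and 0.46 with vector in VM-CUB1. It fell there by 1.03 (SE 0.062, adjusted p = 1.7e-06) and rose by 0.25 in 5637 (SE 0.049, adjusted p = 0.00422). The 14 regulators of ribosomal protein synthesis had 3 rises and 4 falls in VM-CUB1 (21.4% and 28.6%, against 21.1% and 20.5% of all genes). They had 2 rises and 3 falls in 5637 (14.3% and 21.4%, against 14.7% and 15.2%). MYC, a transcription factor that raises ribosome production, fell in both lines, by 0.81 in VM-CUB1 (SE 0.089, adjusted p = 7.5e-05) and by 0.44 in 5637 (SE 0.051, adjusted p = 2.2e-04). Of the kinases that phosphorylate RPS6, RPS6KB2 fell by 1.53 in VM-CUB1 (SE 0.073, adjusted p = 4.2e-07) and RPS6KB1 fell by 0.61 in 5637 (SE 0.062, adjusted p = 1.0e-04).

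Most markers of other cell types were not called, and the largest change was that of CD14 in 5637. Of 17 measured markers of fibroblasts, endothelium, blood, muscle and nerve, CD14 alone was called in VM-CUB1, where it fell by 0.36 (adjusted p = 0.00226). CD14, PECAM1 and MBP rose in 5637, by 0.92, 0.30 and 0.19, and none fell. That was 17.6% of the markers higher, where 14.7% of all genes were. The difference between the lines was -1.28 for CD14 (adjusted p = 5.9e-05) and -0.34 for MBP (adjusted p = 0.00262), both called in limma. The median over the markers was -0.02 and 0.00. Their part in the values of the ribosomal protein genes was not tested.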

How the data were processed

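RNA of 12 samples of 2 cell lines was read on Affymetrix PrimeView arrays after 3′ labelling. According to the methods, GeneSpring GX 12.5 was used by the authors, who set each probe set against its median over samples, and the submitters' processing notes name RMA. The deposited log2 values have a median of 0 per probe set over the 6 arrays of each line, so no filter on low signal could be applied.

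Of 49395 probe sets, 102 controls were left out, 44988 were annotated with 1 gene symbol, 1832 with several and 2473 with none. The first kind gave 18132 genes, each the mean of its probe sets. HOTAIR was compared with vector within each line (3 against 3 arrays), and the effects between lines by an interaction over 12 arrays, with limma 3.58.1 in R 4.3.3, two-sided, and Benjamini-Hochberg adjusted p below 0.01 over all genes. Probe set calls were adjusted over the 44988 probe sets. The fits were checked on simulated data. limma takes the place of the t-test that the methods name, which was run as an alternative. No value from the authors' own comparisons was used.

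Named were, per line, the 10 called members with the largest change in each direction, those called in both lines, the second copies and their partners, the 5S and stalk proteins, and per other list the 3 called genes with the largest change, with MYC and FAU. Others named in groups were chosen after their values were seen. The members and lists were chosen with earlier results of these data known. Promoter and start sequences come from RefSeq (GRCh38.p14), where 60 of 72 members matched. The 12 without an entry were RPL3L, RPL5, RPL7, RPL8, RPL23, RPL23A, RPL30, RPL37, RPL39L, RPS2, RPS15A and RPS20. Alternatives were another test, fit, gene value, probe set choice, array scaling, array weights, prior, threshold, the replicate block and each array left out.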

Additional observations from a re-analysis of the deposited data

Results flagged for a closer look

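The HOTAIR effect differed between the lines for 40 of the 72 ribosomal protein genes in the interaction test of limma. Among the named members, the log2 difference of VM-CUB1 minus 5637 was above 0 for RPL27A (4.02), RPS28 (1.14), RPL36 (1.03), RPL37A (0.97), RPS15 (0.92), RPL8 (0.76), RPL7 (0.66), RPL5 (0.62), RPL13A (0.60), RPL26L1 (0.59) and RPS29 (0.54). Smaller differences above 0 were those of RPL22 (0.48), RPL26 (0.42), RPL3 (0.39), RPS2 (0.36), RPLP2 (0.35), RPS27 (0.25), RPL12 (0.23) and RPL11 (0.21). The RPL12 call was lost without 10 of the 12 arrays, all but VM-CUB1_LV replicate 1 and 5637_LV replicate 1 (adjusted p from 0.0103 to 0.0145). The difference was below 0 for RPL39L (-0.98, on 1 probe set), RPS23 (-0.53) and RPL7L1 (-0.35). Without _x_at probe sets RPS23 turned to 0.10 (adjusted p = 0.222), and RPL7L1 was at -0.21 (adjusted p = 0.122). RPLP2 was at 0.20 there (adjusted p = 0.0417). None of these 3 was then called. The causes of these differences were not tested.

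Probe sets that name several symbols were not used for the genes above, and some rose in VM-CUB1. The 3 probe sets that name RPL17 together with its readthrough transcript gave log2 fold changes of 0.44, 0.58 and 0.52, and those that name RPL27A and SNORA3A gave 0.67 and 0.77. In 5637 the RPL17 probe sets were at -0.05, -0.04 and -0.07 and were not called.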

How the results depend on the processing

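Of 58 called values of named members, 40 kept their direction and side of the threshold in every alternative that entered this count. The 1.5-fold rule and the call by most probe sets did not enter it. Robust eBayes changed no count of calls. With 3 arrays a group, leaving out 1 array gave 18 to 21 members higher and 5 lower in VM-CUB1. It gave 1 to 2 higher and 15 to 20 lower in 5637, and 30 to 34 higher and 3 to 4 lower for the difference. Over all genes these runs called 18.5% to 20.8% higher and 17.7% to 19.5% lower in VM-CUB1. For 5637 the shares were 11.8% to 13.9% and 11.3% to 14.2%, and for the difference 20.5% to 22.2% and 18.8% to 19.7%. The count of 2 higher in 5637 became 1 without any array but 5637_LV replicate 2. Medians of the members ran from 0.09 to 0.12 in VM-CUB1 and from -0.12 to -0.10 in 5637, and large minus small subunit from -0.14 to -0.08 and from -0.11 to -0.08. The methods' t-test called 12 lower in VM-CUB1 and 4 higher in 5637 (15.9% and 10.2% over all genes). The 1 fit of all 12 arrays called 10 and 4 (22.2% and 15.5% over all genes). At an adjusted p below 0.05, 12 were lower in VM-CUB1, and 6 were higher and 33 lower in 5637 (25.6%, 19.1% and 21.7% over all genes). With at least 1.5-fold, 4 were higher and 2 lower in VM-CUB1, 0 higher and 5 lower in 5637, and 10 higher and 1 lower for the difference (13.7% and 14.1% over all genes). Calling a gene where most of its probe sets passed left 14 higher and 3 lower in VM-CUB1 and 1 higher and 12 lower in 5637. No share over all genes was taken for that rule. Without _x_at probe sets 54 members remained, with medians of 0.09 and -0.12 and large minus small subunit at -0.16 and -0.13. Of these, 1 was higher in 5637 (14.5% over all genes), and 23 were higher and 2 lower for the difference (21.4% and 19.9%). Without _x_at and _s_at probe sets 42 remained, with 12 higher in VM-CUB1 and 13 higher for the difference (19.6% and 20.3% over all genes). The median was then 0.08 in VM-CUB1, and large minus small subunit was at -0.26 and -0.03. With the median of probe sets the medians were 0.09 and -0.08 and large minus small subunit in VM-CUB1 was -0.14. Arrays centred on their median gave medians of 0.13 and -0.08 and 4 higher in 5637 (15.8% over all genes). Array weights gave a median of 0.10 in VM-CUB1. RPS23 turned to 0.08, 0.08 and 0.06 in VM-CUB1 and to 0.10, 0.10 and 0.10 in the difference without _x_at, without _x_at and _s_at, and with the median of probe sets. RPLP2 turned to -0.04 in VM-CUB1 and to -0.06 in the difference without _x_at and _s_at probe sets. Among uncalled values, RPL23 in 5637 turned to 0.01 and RPL39L in 5637 to 0.01 with arrays centred, and RPL39L to 0.03 with array weights. Over the arrays left out in turn, uncalled values near 0 ran from -0.11 to 0.13 for RPL39L in 5637, from 0.00 to 0.04 for RPLP2 in 5637, from -0.10 to 0.08 for RPL3L in VM-CUB1 and from -0.15 to 0.07 in 5637. The uncalled differences between the lines ran from -0.05 to 0.17 for RPL3L, from -0.08 to 0.05 for RPL10L and from -0.05 to 0.01 for RPL39.

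Replicate numbers did not pair the arrays. The correlations of same-numbered arrays' deviations ran from -0.0454 to 0.0833. With the replicate block, 19 members were higher and 5 lower in VM-CUB1 (19.5% and 18.7% over all genes). In 5637, 1 was higher and 17 lower (13.1% and 13%). For the difference, 32 were higher and 3 lower (21.3% and 19.4%), and 7 calls of named members were lost.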

Other observations

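In all, 38 probe sets name a ribosomal protein gene together with another symbol, or list it more than once. In VM-CUB1, 6 of them were called higher and 2 lower, with a median log2 fold change of 0.04, and in 5637 0 were called higher and 6 lower, with a median of -0.08. The 3 probe sets that list RPL37 more than once fell by 1.11, 1.13 and 1.43 in 5637, whereas those of RPL37 in the fit were at -0.63, -0.02 and -0.04. In VM-CUB1 they were at -0.66, -0.01 and 0.01, and the first was called lower. Of the genes read only by such probe sets, RPS26 was at -0.33 in VM-CUB1 (adjusted p = 0.00331) and 0.24 in 5637 (adjusted p = 0.0124) on the probe set that names no other gene. The RPS26 probe set that also names RPS26P3 was at -0.07 and -0.12, neither of them called. RPL36A was at 0.15 and 0.19, and RPS12 at 0.06 and 0.04 on 1 probe set and at 0.04 and 0.02 on the other.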
